A study of Homo sapiens with 4 samples.

Results

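PLC/PRF/5 is a line grown from a human hepatocellular carcinoma. It carries integrated hepatitis B virus DNA and keeps part of the hepatocyte programme. Its response to loss of SCD is described here from 2 RNA-seq libraries. The control library came from PLC/PRF/5 cells transduced with a lentivirus carrying a non-target control hairpin (NTC). The knockdown library came from PLC/PRF/5 cells transduced with a lentivirus carrying an shRNA against SCD1, the protein made from the gene SCD; the labels call this hairpin shSCD1#13. Both cultures were selected with puromycin, so both are stably transduced populations grown in DMEM-HG with FBS. The arms differ in 1 hairpin, which limits the comparison as a model of SCD loss, and each has 1 library. The whole series holds 4 libraries, the other 2 being the same pair in Huh7, another hepatocellular carcinoma line. Values are TPM, a transcript level scaled for length that sums to a fixed total in each library. Of 25343 genes listed, the 13057 with a TPM of at least 1 in either PLC/PRF/5 library were considered. Their fold changes are log2 values of the knockdown over the control level, with 1 TPM added to both, so a low gene shows less than its full change. With 1 library per arm no difference has a replicate check, so sizes are described and nothing is tested.

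SCD is an enzyme of the endoplasmic reticulum (ER) membrane that places a double bond into saturated fatty acyl chains, chiefly turning stearoyl-CoA into oleoyl-CoA. Its products go into membrane phospholipids, triglycerides and cholesteryl esters. The ratio of saturated to unsaturated chains in ER membranes is known to be read by the sensors of the unfolded protein response. The sterol-sensing SREBP system and the nuclear receptors of lipid metabolism also regulate this pathway in hepatocytes.

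SCD itself was at 1111 TPM in control cells and 178 TPM in knockdown cells (log2 fold change -2.64). SCD5, the other human desaturase of this kind, was at 3.71 and 5.28 TPM, far below the SCD that remained. Of 10 markers fixed for liver carcinoma cells, 9 were considered, and 6 of these were lower with a median log2 fold change of -0.42. The summed level of the 10 was 5775 TPM in control cells and 5782 TPM in knockdown cells. This sum includes the abundant keratins KRT8 and KRT18, both higher in the knockdown library, which offset the markers that were lower. TTR, the transthyretin gene, was the marker below the limit, at 0.41 and 0.16 TPM. Markers of other cell types were near 0: the summed level of 4 lymphocyte markers was 0.53 and 0.40 TPM, of 6 stellate and fibroblast markers 3.47 and 2.49 TPM, and of 5 endothelial markers 3.4 and 1.5 TPM. KDR, STAB2, ACTA2, MARCO and NKG7 were listed at 0 in both libraries. The macrophage list summed to 27.1 and 13.5 TPM, nearly all of it CD68, a lysosomal glycoprotein. The part of CD68-carrying cells in any result was not tested.

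**Figure D1:**
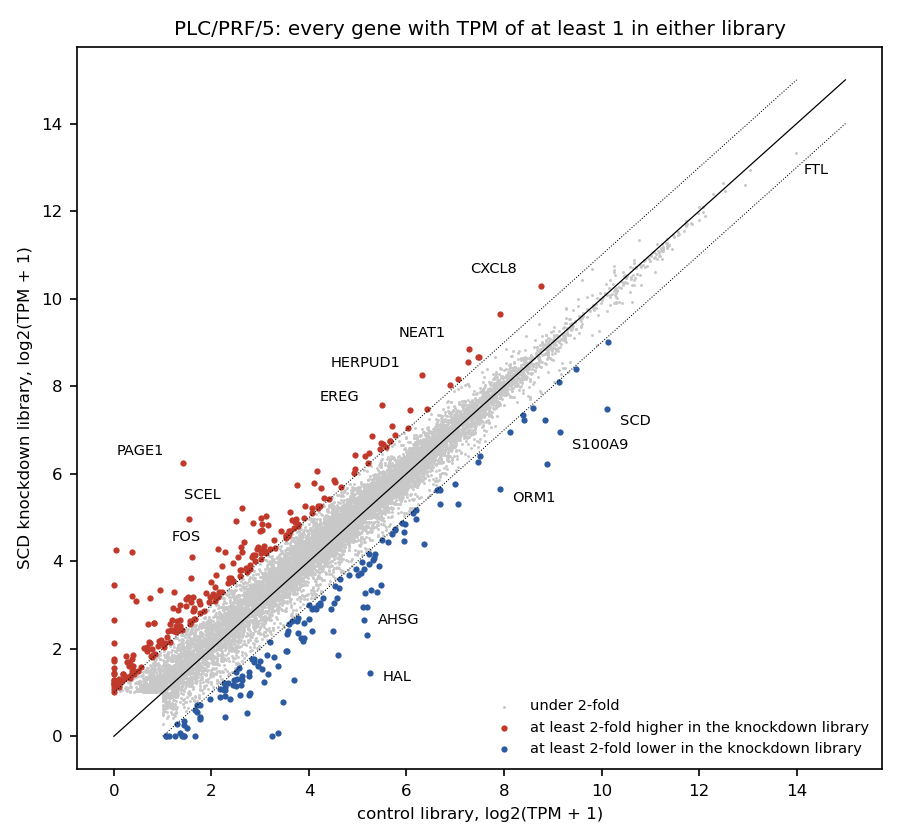
Level of every gene considered in the knockdown library (vertical axis) against the control library (horizontal axis), both as log2(TPM + 1), 1 point per gene. The solid line marks equal levels and the dotted lines a 2-fold difference; 225 red points lie above and 146 blue points below, and the named genes are described in the text.

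Most genes lay close to equality. The median log2 fold change over the 13057 genes was 0.10, with quartiles at -0.10 and 0.32. At least a 2-fold higher level in the knockdown library was found for 225 genes (1.72%), and at least a 2-fold lower level for 146 (1.12%). At 1.5-fold the shares were 8.13% higher and 4.02% lower, and by any amount 63.4% higher and 36.5% lower. These shares are the background against which each gene group is set below. The genes closest to the 2-fold limit were SIDT1 (0.25 and 1.5 TPM) and AADAC (2.28 and 0.64 TPM), just inside it, and MAPK8IP3 (8.85 and 18.7 TPM) and HLA-B (54.7 and 26.8 TPM), just outside. The median control level was 13.9 TPM for the genes 2-fold lower and 3.18 TPM for those 2-fold higher. The control library is by definition the higher one for the first group and the lower one for the second. These 2 medians therefore do not compare abundance. With at least 5 TPM in either library were 110 of the 146 genes lower and 155 of the 225 higher. Scaling each library by its median ratio lowers the log2 values by about 0.10, and by less for low genes, where the added 1 TPM weighs more. It turns the share of the 2-fold genes that were higher from 60.6% to 46.6%, and the share of all genes that were higher to 50.9%. The added 1 TPM sets the counts too: with 0.1 TPM added they were 480 higher and 248 lower, and with 5 TPM added 68 and 55.

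**Figure D2:**
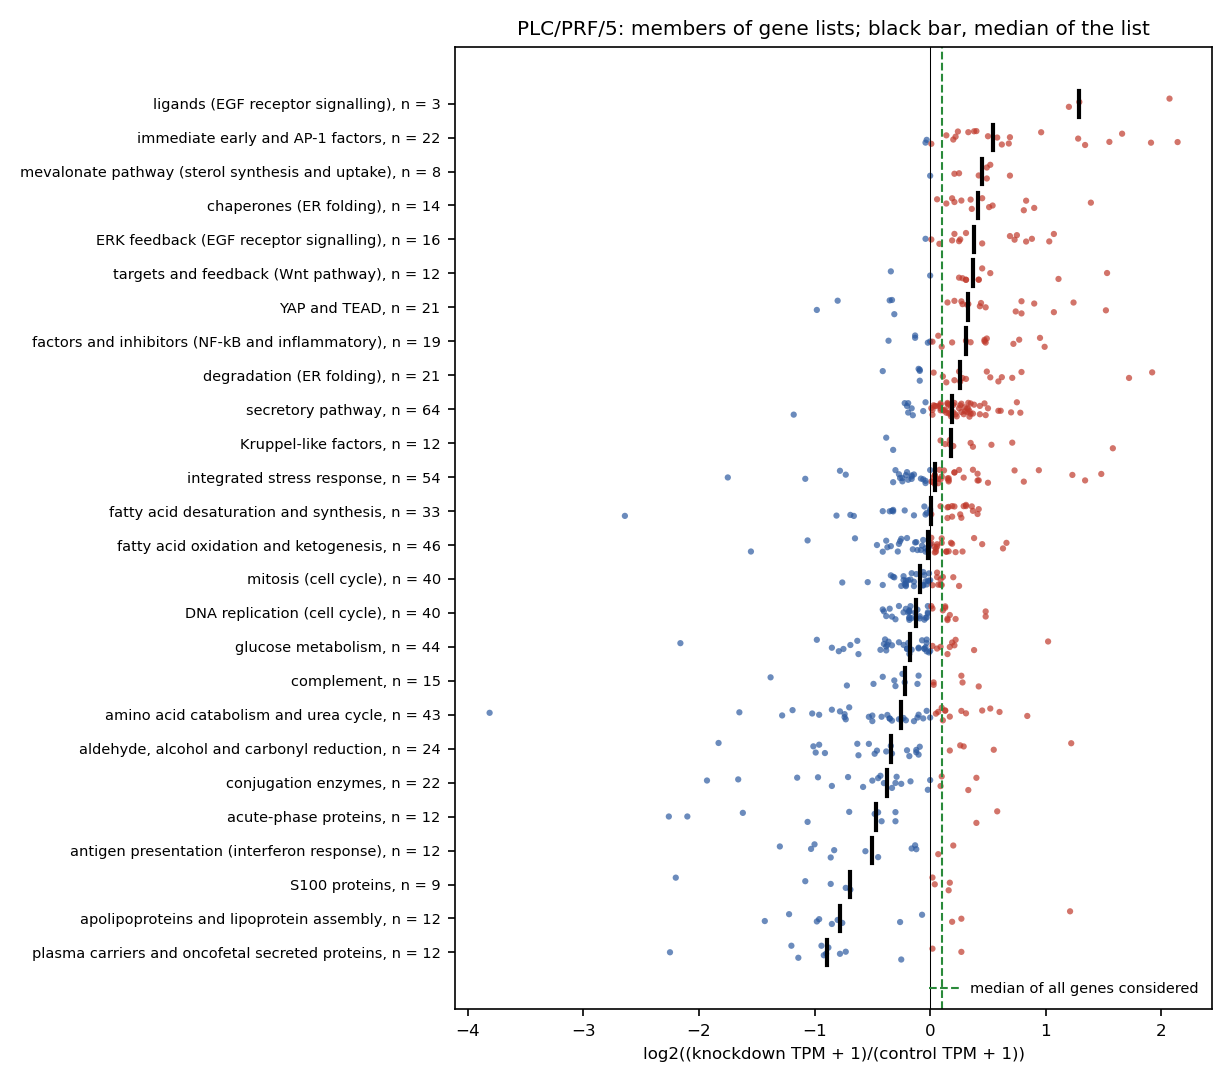
log2 fold change of each member (points, red above 0 and blue below) of 26 gene lists or parts of lists, with the number of members considered beside each name. Black bars are list medians, ordered from the plasma carriers at -0.89 to the EGF receptor ligands at 1.29, and the dashed line is the median of all genes considered, 0.10.

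The ER quality-control genes were higher as a group. Proteins entering the ER are folded by chaperones and by disulfide isomerases, and those that fail are passed back to the cytosol for degradation. When folding falls behind, the sensors ERN1, EIF2AK3 and ATF6 raise the transcription of these genes, and promoters that answer them often carry a short element. The classical ER stress element, read as CCAAT, any 9 bases and CCACG, was searched on both strands in the 300 bases around the start sites that RefSeq gives (build GRCh38.p14, 250 bases before to 50 after). It was present in 27 of 35116 human promoters (0.077%), and in the promoters of 5 of 14 ER chaperone genes: HSPA5, HSP90B1, CRELD2, CALR and CANX. Of the other ER genes listed, XBP1, ERO1B and PDIA6 had it. Of 21 degradation genes 17 have a promoter in this set, and 0 of these 17 had the element. DERL3, described below, has no promoter in the set and could not be searched. A shorter form, read as ATTGG, any 1 base and CCACG, was in 19 promoters (0.054%), among them HERPUD1, HYOU1 and SDF2L1. The chaperones DNAJB9 and MANF had neither form, and whether the element goes with the differences was not tested. The promoters below are shown because HERPUD1, CRELD2 and HSPA5 were among the ER genes with the largest difference, and HSP90B1 because it carries the element on either strand. Capitals mark the element, and a match of letters is a description, not a measured site. Each promoter is printed along its gene's own strand; in CRELD2, and at the second place in HSP90B1, the element lies on the opposite strand and so reads reversed and complemented. No 2 matches overlapped in these 4 promoters.
HERPUD1 (chr16:56931892-56932191, plus strand): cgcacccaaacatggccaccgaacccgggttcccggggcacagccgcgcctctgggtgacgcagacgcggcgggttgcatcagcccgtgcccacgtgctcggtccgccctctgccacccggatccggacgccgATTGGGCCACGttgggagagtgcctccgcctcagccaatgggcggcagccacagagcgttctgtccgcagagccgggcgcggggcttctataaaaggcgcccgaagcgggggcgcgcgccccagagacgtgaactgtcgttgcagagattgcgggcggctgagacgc
CRELD2 (chr22:49918384-49918683, plus strand): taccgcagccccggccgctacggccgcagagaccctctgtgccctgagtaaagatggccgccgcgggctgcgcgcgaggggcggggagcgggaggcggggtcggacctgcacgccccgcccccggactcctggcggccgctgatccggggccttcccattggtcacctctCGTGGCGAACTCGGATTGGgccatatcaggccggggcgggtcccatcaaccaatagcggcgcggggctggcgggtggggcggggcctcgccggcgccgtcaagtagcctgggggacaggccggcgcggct
HSPA5 (chr9:125241294-125241593, minus strand): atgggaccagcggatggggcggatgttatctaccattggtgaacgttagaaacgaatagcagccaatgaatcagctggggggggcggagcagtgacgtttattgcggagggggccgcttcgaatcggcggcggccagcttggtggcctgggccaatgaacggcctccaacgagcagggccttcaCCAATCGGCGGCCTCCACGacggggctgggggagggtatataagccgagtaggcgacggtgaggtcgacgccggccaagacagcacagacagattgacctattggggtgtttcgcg
HSP90B1 (chr12:103930160-103930459, plus strand): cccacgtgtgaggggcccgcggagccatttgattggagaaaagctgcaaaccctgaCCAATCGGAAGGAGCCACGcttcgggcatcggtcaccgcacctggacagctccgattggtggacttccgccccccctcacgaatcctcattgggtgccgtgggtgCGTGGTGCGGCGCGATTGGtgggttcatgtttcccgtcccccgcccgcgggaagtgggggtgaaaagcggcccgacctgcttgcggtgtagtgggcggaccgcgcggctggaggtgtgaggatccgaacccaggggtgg

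Counted from the start site, the element begins at base -66 in HSPA5, -117 in HERPUD1, -80 in CRELD2, and -194 and -89 in HSP90B1. All 14 chaperone genes were higher in the knockdown library, with a median log2 fold change of 0.41; after median-ratio scaling 13 of 14 were, with a median of 0.31. DNAJB9, a co-chaperone that binds the sensor ERN1, went from 50.7 to 134 TPM (1.39). HSPA5, the central ER chaperone BiP, stood at 775 TPM in control cells and 1383 TPM in knockdown cells (0.83). CRELD2 stood at 56.7 and 107 TPM (0.90), and MANF, a secreted ER stress protein, at 114 and 200 TPM (0.81). These 4 were the chaperones past 1.5-fold; the other 10 lay between 0.06 for SIL1, a nucleotide exchange factor, and 0.54 for DNAJC3. HSP90B1, the ER paralogue of HSP90, was at 1226 and 1560 TPM (0.35), and HYOU1, which has the short element, at 440 and 508 TPM (0.21).

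Genes of ER-associated degradation were higher for 16 of 21, with a median of 0.26, and 2 of them passed 2-fold. HERPUD1, a membrane scaffold of the degradation complex, was at 79.2 TPM in control cells and 303 TPM in knockdown cells (1.92). DERL3, a member of the derlin family that moves substrates out of the ER, was at 1.33 and 6.67 TPM (1.72). The partners of HERPUD1 in this complex were higher by less: SYVN1, the ubiquitin ligase, at 107 and 176 TPM (0.71), SEL1L, its adaptor, at 54.9 and 79.0 TPM (0.52), and DERL2 at 99.1 and 149 TPM (0.59). VIMP, which links the complex to the VCP ATPase, was at 152 and 263 TPM (0.79), while VCP itself was at 588 and 647 TPM (0.14). Of the sensors, ERN1 (12.4 and 22.3 TPM, 0.80) and EIF2AK3 (21.2 and 35.4 TPM, 0.72) were higher, and the total level of XBP1, whose spliced form is made by ERN1, was 484 and 485 TPM. TPM of a whole gene does not separate the spliced form. CREB3L1, an ER-bound factor of the same family as ATF6, was lower, at 3.36 and 1.43 TPM (-0.84).

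The disulfide and proline isomerases did not follow the chaperones throughout. Of 17, 13 were higher, with a median of 0.21, but the largest differences of the group were downward. PDIA5 was at 60.9 TPM in control cells and 24.6 TPM in knockdown cells (-1.28), and TXNDC5 at 425 and 235 TPM (-0.85). Both are thioredoxin-fold oxidoreductases of the ER. The joint entry BLOC1S5-TXNDC5 shares 99.0% of its short sequence words with other genes. Reads can pass between this entry and TXNDC5, so the separate level of TXNDC5 is uncertain. The abundant members P4HB (1200 and 1293 TPM) and PDIA3 (652 and 684 TPM) differed by 0.11 and 0.07 on the log2 scale.

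Downstream of the ER, the transport machinery was shifted by a small amount in a uniform direction. Of 64 genes of the translocon, the oligosaccharyltransferase, COPII and COPI coats and cargo receptors, 55 were higher, with a median of 0.19; after median-ratio scaling 44 were, with a median of 0.09. Among the 25 COPII and cargo receptor genes 23 were higher. KDELR3, a receptor that returns chaperones to the ER, was at 17.1 and 30.0 TPM (0.78), SEC24D, a COPII cargo adaptor, at 58.4 and 99.0 TPM (0.75), MIA3, which exports large cargo, at 24.0 and 39.5 TPM (0.70), and SEC31A, of the outer coat, at 110 and 168 TPM (0.61). CNIH1, a cargo receptor for growth factor precursors, was the 1 gene of the 64 past 2-fold and was lower, at 338 and 149 TPM (-1.18). SEC61A1, the channel of the translocon, was at 313 and 444 TPM (0.50). The oligosaccharyltransferase genes, 8 of 10 higher, had a median of 0.08, which becomes -0.02 after median-ratio scaling. The core XBP1 letters TGACGTGG were in 256 of the 35116 promoters (0.729%), and in 4 of 21 COPII and 5 of 9 COPI genes that have a promoter in the table, SEC24A, SEC23A, COPA and GBF1 among them. They were in 3 of 16 translocon and 0 of 7 oligosaccharyltransferase genes. Of the ER genes, 2 of 14 chaperones, 2 of 15 isomerases, 2 of 17 degradation genes and 0 of 8 sensors had them. Whether these letters go with the differences was not tested.

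The integrated stress response, in which phosphorylated eIF2 limits translation and favours ATF4, was split by role. Its regulators were higher for 15 of 20, with a median of 0.16. After median-ratio scaling 11 of 20 were, with a median of 0.05, near the 50.9% of all genes. PPP1R15A, which dephosphorylates eIF2, was at 29.8 and 84.6 TPM (1.48), ATF3 at 14.03 and 37.2 TPM (1.34), and DDIT3, the factor CHOP, at 43.8 and 104 TPM (1.23). SESN2 (22.9 and 44.7 TPM) and CHAC1 (70.5 and 118 TPM) were higher by 0.94 and 0.73. ATF4 itself was at 906 and 928 TPM. NUPR1 was lower, at 132 and 38.7 TPM (-1.75), as was DDIT4, an inhibitor of mTORC1, at 383 and 181 TPM (-1.08). The amino acid synthesis genes that ATF4 drives were lower for 8 of 13: CBS at 368 and 214 TPM (-0.78), PHGDH at 223 and 134 TPM (-0.73), and ASNS at 327 and 273 TPM (-0.26). The 13 tRNA-charging genes had a median of 0.02. SLC3A2, the shared heavy chain of amino acid exchangers, was at 262 and 461 TPM (0.81), and SLC7A11, its cystine-importing partner, at 27.6 and 22.7 TPM (-0.27).

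Cytosolic chaperones showed no 2-fold difference among 24 genes, with a median of 0.15. DNAJB4 (23.2 and 40.1 TPM, 0.77) and HSPE1, a mitochondrial co-chaperonin (580 and 370 TPM, -0.65), were the widest. Of 24 genes regulated by the antioxidant factor NRF2, 12 were higher and 12 lower. Those higher included HMOX1, heme oxygenase (153 and 373 TPM, 1.28), ABCC2, an exporter of conjugates (178 and 406 TPM, 1.18), OSGIN1 (17.7 and 37.5 TPM, 1.04), and the glutathione synthesis subunits GCLC (71.0 and 130 TPM, 0.86) and GCLM (102 and 162 TPM, 0.66). Those lower were the ketone-reducing enzymes AKR1C3 (72.0 and 35.2 TPM, -1.01), AKR1C2 (98.0 and 48.9 TPM, -0.99) and AKR1C1 (93.7 and 47.8 TPM, -0.96). PGD, of the pentose phosphate pathway, was at 607 and 338 TPM (-0.84), and GPX2, a glutathione peroxidase, at 361 and 219 TPM (-0.72). AKR1C1 and AKR1C2 share 35.4% and 63.5% of their 31-base sequence words with other genes, so their separate levels are uncertain. The iron-storage subunit FTL, the most abundant gene named here, was at 16176 and 10284 TPM (-0.65), and FTH1 at 2785 and 2238 TPM (-0.32). GPX4, which clears lipid peroxides, was at 769 and 655 TPM, and ACSL4, which activates polyunsaturated fatty acids, at 378 and 315 TPM. Among 46 autophagy and lysosome genes none was 2-fold different; MAP1LC3B was at 79.9 and 123 TPM (0.62) and CTSH, a cathepsin, at 13.8 and 24.5 TPM (0.79). Of 6 metallothionein and zinc genes considered, 4 were higher, led by the zinc-sensing factor MTF1 at 7.95 and 12.3 TPM (0.57).

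**Figure D3:**
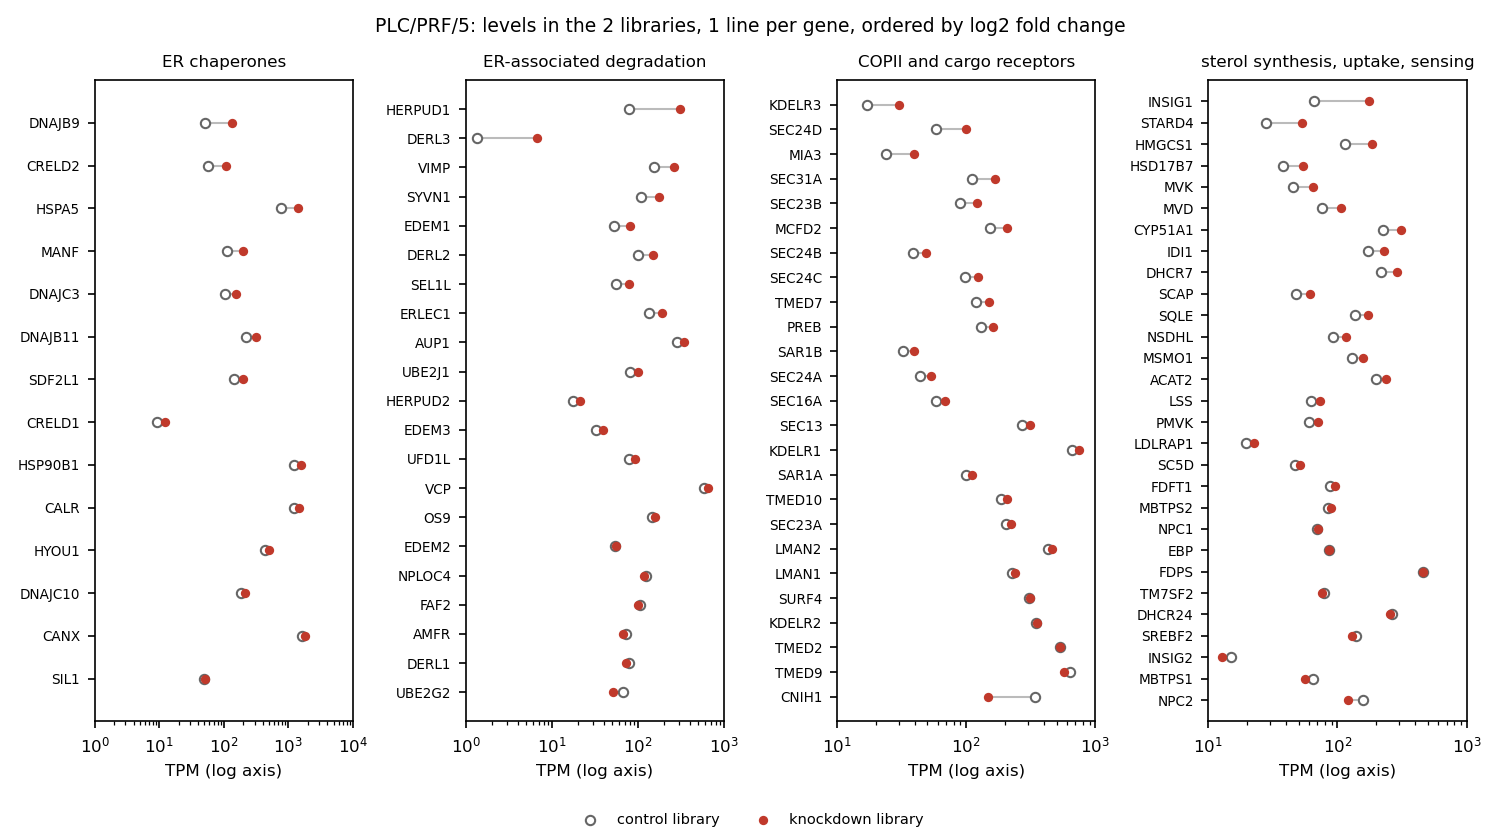
TPM (log axis) of each gene of 4 groups in the control (open circles) and knockdown library (red), ordered by log2 fold change from the lowest at the bottom. All 14 chaperones lie to the right of their control value, as do 23 of 25 COPII genes, while CNIH1 lies to the left; sterol genes not reported here are not drawn.

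Sterol genes were the lipid pathway with the most uniform difference. Cells build cholesterol through the mevalonate pathway; SREBP2, escorted by SCAP and held in the ER by INSIG proteins, drives its genes. Of 31 sterol genes 24 were higher, with a median of 0.25. INSIG1, 1 of 2 genes past 2-fold, was at 66.0 TPM in control cells and 175 TPM in knockdown cells (1.40). STARD4, a sterol carrier, was at 27.9 and 53.2 TPM (0.91). In the mevalonate pathway 7 of 8 genes were higher, with a median of 0.45, among them HMGCS1, the synthase at the entry of the pathway, at 114 and 184 TPM (0.69). FDPS, at 460 and 458 TPM, was level. From squalene to cholesterol 10 of 12 were higher by at most 0.52, the value of HSD17B7 (37.8 and 54.5 TPM). SREBF2, the gene of SREBP2, was at 140 and 129 TPM. In Huh7, where 60.2% of all genes considered were higher, 0 of the 8 mevalonate genes were, with a median of -0.13; the difference between the lines was not tested. LXR-regulated genes were near level: ABCA1 was at 23.3 and 29.5 TPM (0.33) and MYLIP, a ubiquitin ligase, at 3.60 and 2.66 TPM (-0.33).

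Fatty acid synthesis around SCD was split. Of 33 genes 18 were higher, with a median of 0.01. Besides SCD, the genes past 1.5-fold were lower: PTPLB, a dehydratase of the elongation cycle (101 and 57.1 TPM, -0.81), ELOVL6, which elongates palmitate to stearate and so makes the substrate of SCD (34.2 and 20.8 TPM, -0.69), and FADS2, a front-end desaturase (15.9 and 9.67 TPM, -0.66). Of the 12 elongation genes 7 were lower, with a median of -0.18. Those higher included ELOVL7 at 14.2 and 19.3 TPM (0.41), ELOVL5 at 167 and 208 TPM (0.31) and ELOVL1 at 131 and 157 TPM (0.26). FASN, the synthase, was at 323 and 401 TPM (0.31), and SREBF1, its regulator, at 67.9 and 77.7 TPM (0.19).

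In glycerolipid synthesis none of 45 genes reached 2-fold, and 4 were past 1.5-fold, all higher. LPIN1, a phosphatidate phosphatase that makes diacylglycerol, was at 11.3 and 23.0 TPM (0.96), and LPIN3 at 11.6 and 19.4 TPM (0.70). ACSL5, an acyl-CoA synthetase, was at 13.2 and 24.1 TPM (0.83), and CHKB, a choline kinase, at 12.2 and 20.5 TPM (0.71). DGAT2, which closes triglyceride synthesis and prefers newly made fatty acids, was at 8.22 and 5.58 TPM (-0.49). The acyl-chain remodelling enzymes differed by little: LPCAT3, which puts polyunsaturated chains into phosphatidylcholine, was at 75.2 and 84.0 TPM (0.16).

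Of 16 lipid droplet genes 10 were lower, and of the 4 past 1.5-fold 3 were lower and 1 higher. PLIN2, the coat protein of hepatocyte droplets, was at 106 and 63.6 TPM (-0.72), HILPDA, a droplet protein that inhibits lipolysis, at 62.6 and 33.6 TPM (-0.88), and MGLL, the monoglyceride lipase, at 33.2 and 16.7 TPM (-0.95). CIDEC, which fuses droplets, was higher at 10.3 and 16.3 TPM (0.61). Of 6 fatty acid binding proteins considered, FABP1, the liver form, was at 23.1 and 2.64 TPM (-2.72), and FABP5 at 981 and 610 TPM (-0.68). CAV1, caveolin, was at 13.0 and 23.3 TPM (0.80) and SLC27A2, a very-long-chain acyl-CoA synthetase and transporter, at 15.3 and 26.2 TPM (0.74).

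Mitochondrial fatty acid oxidation was level, with 6 of 15 genes of the spiral higher and a range from -0.46 to 0.19; CPT1A, the gate of entry, was at 113 and 110 TPM. The wide values of the oxidation list lay elsewhere: ACOX2, a peroxisomal oxidase of branched chains and bile acid intermediates, was at 20.8 and 6.47 TPM (-1.55), and CREB3L3, a liver ER-bound factor that acts with PPARA, at 102 and 48.4 TPM (-1.06). ACAA1, a peroxisomal thiolase, was at 34.2 and 53.4 TPM (0.63), and PDK4 at 16.9 and 27.3 TPM (0.66). Sphingolipid genes had a median of -0.02 over 30, with SMPD1, acid sphingomyelinase (8.71 and 15.7 TPM, 0.78), and SPTSSB, a small subunit of the first enzyme (7.35 and 11.99 TPM, 0.64), past 1.5-fold.

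Secreted liver proteins were lower in large part. Over 5 lists together, 49 of 72 genes considered were lower, 14 of them at least 2-fold, and 3 were at least 2-fold higher, with a median of -0.42. In a culture, fewer cells that make a protein and less RNA per cell cannot be told apart. Among plasma carriers 10 of 12 were lower, with a median of -0.89. AHSG, fetuin-A, was at 35.7 and 6.73 TPM (-2.25), TF, transferrin, at 1125 and 511 TPM (-1.14), AFP, alpha-fetoprotein, at 17.2 and 6.96 TPM (-1.20), RBP4, the retinol carrier, at 572 and 310 TPM (-0.88), CP, ceruloplasmin, at 433 and 228 TPM (-0.92), and ALB, albumin, at 69.3 and 41.5 TPM (-0.73). VTN, vitronectin, was the higher exception, at 621 and 749 TPM (0.27), and AMBP was level at 556 and 565 TPM.

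Apolipoproteins were lower for 9 of 12, with a median of -0.78. APOE was at 633 and 321 TPM (-0.98), APOC1 at 549 and 282 TPM (-0.96), APOA2 at 654 and 374 TPM (-0.80) and APOA1 at 28.7 and 15.5 TPM (-0.85). APOC2, the cofactor of lipoprotein lipase, was at 5.08 and 1.26 TPM (-1.43) and APOC3, its inhibitor, at 4.77 and 1.48 TPM (-1.22). The parts that assemble very-low-density lipoprotein were closer to level: APOB at 1780 and 1485 TPM (-0.26) and MTTP, its lipid-loading transfer protein, at 112 and 107 TPM (-0.07). LCAT, which esterifies cholesterol in plasma, was higher, at 2.93 and 8.12 TPM (1.21).

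Acute-phase genes were lower for 10 of 12. ORM1, orosomucoid, was at 240 and 49.1 TPM (-2.26) and ORM2 at 41.2 and 8.86 TPM (-2.10); the pair share 56.1% and 59.3% of their sequence words with other genes. The 3 fibrinogen chains, which are secreted as 1 complex, differed by unequal amounts: FGB was at 459 and 149 TPM (-1.62), FGG at 1567 and 967 TPM (-0.70) and FGA at 2184 and 1563 TPM (-0.48). FGL1, a fibrinogen-like protein, was higher at 85.6 and 129 TPM (0.58). SERPINA1, alpha-1-antitrypsin, was at 1303 and 972 TPM (-0.42), and the related SERPINA3 at 2.42 and 0.64 TPM (-1.06). The inducible CRP, SAA1, SAA2 and HP were below 1 TPM in both libraries.

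Coagulation genes went both ways, 12 of 23 higher. KNG1, kininogen, was at 34.1 and 5.33 TPM (-2.47) and F2, prothrombin, at 102 and 38.4 TPM (-1.39). HABP2, a protease that activates factor VII, was at 7.18 and 25.1 TPM (1.68), F5 at 37.96 and 57.8 TPM (0.59) and F3, tissue factor, at 9.82 and 19.3 TPM (0.90). SERPINA5, the protein C inhibitor, was at 2.92 and 0.80 TPM (-1.12). SERPINE2, another protease inhibitor, was at 21.95 and 56.8 TPM (1.33). The list's median was 0.18, and -0.27 over the members with at least 5 TPM in either library. Complement components were lower for 8 of 9, by at most 0.49, C3 being at 494 and 401 TPM (-0.30), and SERPING1, the C1 inhibitor, was at 5.78 and 1.60 TPM (-1.38).

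**Figure D4:**
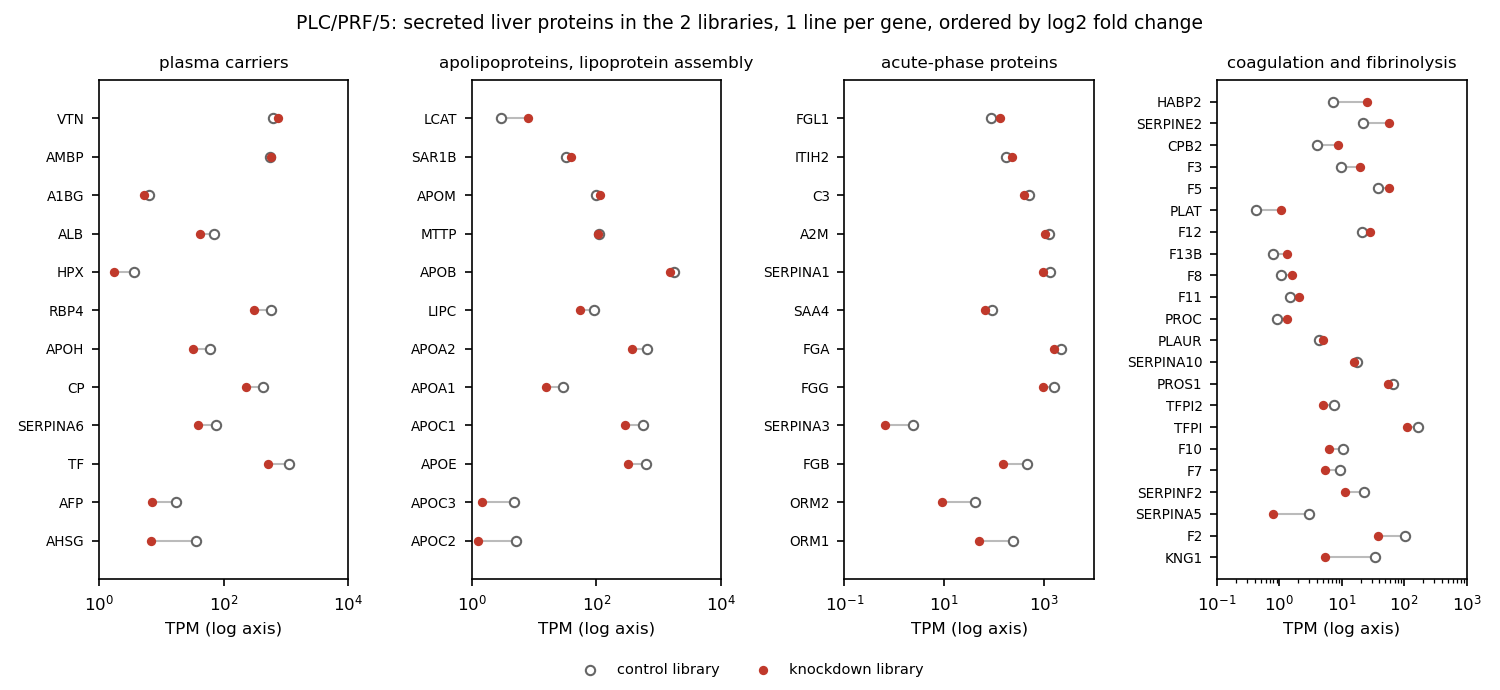
TPM (log axis) of secreted liver proteins in the control (open circles) and knockdown library (red), 1 row per gene, ordered by log2 fold change. Red points lie to the left for 10 of 12 plasma carriers, 9 of 12 apolipoprotein genes and 10 of 12 acute-phase genes; coagulation genes not reported here are not drawn.

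The transcription factors that set hepatocyte identity did not differ in the same way. Of 27 considered, 16 were higher, with a median of 0.14, and 2 were at least 2-fold lower. NR1H4, the bile acid receptor FXR, was at 5.68 and 0.44 TPM (-2.21), and CEBPA at 98.3 and 48.4 TPM (-1.01). HNF4A (122 and 135 TPM) and FOXA2 (49.5 and 64.5 TPM) were at or above their control level. ONECUT2 (12.5 and 24.5 TPM, 0.92) and NFIB (4.59 and 9.17 TPM, 0.86) were the highest. Of 25 bile acid genes 15 were below 1 TPM in both libraries, CYP7A1 and the uptake carrier SLC10A1 among them; BAAT, which conjugates bile acids, was at 2.10 and 6.26 TPM (1.23), and the exporter ABCC4 at 60.6 and 33.5 TPM (-0.84).

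Amino acid breakdown was lower for 29 of 43 genes, with a median of -0.25, and 5 were at least 2-fold lower and none 2-fold higher. The first steps of histidine breakdown, HAL and AMDHD1, were both lower, HAL at 37.2 and 1.73 TPM (-3.81) and AMDHD1 at 40.1 and 17.0 TPM (-1.19); HAL had the lowest fold change of all genes with at least 5 TPM in either library. Of the serine dehydratases, SDSL was at 13.9 and 3.73 TPM (-1.65) and SDS at 1.55 and 0.05 TPM (-1.28). BCAT2, the mitochondrial branched-chain aminotransferase, was at 44.4 and 21.4 TPM (-1.02). In the urea cycle 6 of 7 were lower, ASS1 at 953 and 488 TPM (-0.96) and CPS1 at 1799 and 1267 TPM (-0.50), while ARG2 was at 33.7 and 46.4 TPM (0.45). MAT1A, the liver methionine adenosyltransferase, was lower at 30.7 and 16.6 TPM (-0.85), and MAT2A, the form of dividing cells, higher at 288 and 413 TPM (0.52).

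Glucose genes were lower for 34 of 44, with a median of -0.17. All 10 genes of gluconeogenesis and fructose use were lower, G6PC, glucose-6-phosphatase, at 6.85 and 2.99 TPM (-0.98) and PCK2 at 130 and 79.9 TPM (-0.69), but 6 of them by 0.16 or less. In glycolysis 20 of 25 were lower. SLC2A3, a glucose transporter, was at 33.5 and 6.71 TPM (-2.16), with 36.3% of its sequence words shared with other genes, whereas SLC2A1 was at 27.9 and 32.0 TPM (0.19). PGAM1 was at 890 and 575 TPM (-0.63), LDHA at 1256 and 965 TPM (-0.38) and GAPDH at 7842 and 6223 TPM (-0.33). LDHB was low in both, at 0.48 and 2.01 TPM (1.02). Several genes induced in hypoxia were also lower, NDRG1 at 34.4 and 8.62 TPM (-1.88), CA9 at 4.20 and 0.80 TPM (-1.53) and LOX at 7.76 and 2.63 TPM (-1.27), but the median of the 21 was -0.01, and VEGFA was at 67.2 and 90.2 TPM (0.42).

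Conjugation enzymes of drug metabolism were lower for 18 of 22, with a median of -0.37. GSTM4 was at 37.7 and 9.18 TPM (-1.93), GSTM1 at 5.03 and 0.91 TPM (-1.66), SULT1A1, a phenol sulfotransferase, at 30.2 and 13.1 TPM (-1.15), and UGT1A1, the bilirubin glucuronosyltransferase, at 88.5 and 44.9 TPM (-0.97). GSTM4 and GSTM1 share 20.8% and 35.6% of their sequence words with other genes, and SULT1A3, close in sequence to SULT1A1, was at 0.66 and 7.91 TPM (2.42) with 96.8% shared. Aldehyde and alcohol enzymes were lower for 19 of 24, ALDH1A1 at 1376 and 955 TPM (-0.53) and ADH1C at 5.81 and 0.91 TPM (-1.83), while ALDH3A1 was low in both and higher, at 0.31 and 2.05 TPM (1.22). The P450 genes had a median of -0.02 over 11; CYP1A1 was at 48.3 and 82.6 TPM (0.76), CYP2B6 at 0.66 and 3.41 TPM (1.41), CYP2E1 at 0.11 and 1.36 TPM (1.09) and CYP2S1 at 77.9 and 43.2 TPM (-0.84).

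In growth factor signalling the ligands of the EGF receptor and the feedback genes of ERK were higher, while 3 of 7 genes of receptors and shedding were, with a median of -0.01. Ligands of the EGF receptor are shed from the cell surface, activate the ERK cascade and so induce immediate early transcription factors as well as their own phosphatases. The 3 ligands considered were all past 2-fold: EREG, epiregulin, at 44.1 and 188 TPM (2.07), HBEGF at 2.11 and 6.58 TPM (1.29) and AREG, amphiregulin, at 176 and 406 TPM (1.2). EGFR was at 70.1 and 112 TPM (0.67) and ERBB3 at 153 and 102 TPM (-0.58). Genes of ERK feedback were higher for 15 of 16, with a median of 0.38; after median-ratio scaling 13 of 16 were, with a median of 0.28. DUSP8 was at 11.9 and 26.1 TPM (1.07), DUSP6, the phosphatase specific to ERK, at 36.1 and 74.4 TPM (1.03), DUSP1 at 132 and 244 TPM (0.88) and SPRY4, an inhibitor of receptor signalling, at 13.5 and 22.4 TPM (0.69). DUSP4 (66.6 and 64.7 TPM) and ETV4 (244 and 246 TPM) were level. DUSP9, which was not on the list, was lower at 43.8 and 10.1 TPM (-2.02). Of all 19 genes considered whose symbol has the stem DUSP, 12 were higher, with a median of 0.16. The count for ERK feedback therefore depends on which genes were listed.

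Of 22 immediate early and AP-1 factors 20 were higher, 6 of them past 2-fold and none 2-fold lower, with a median of 0.54. FOS was at 3.39 and 18.3 TPM (2.14), EGR1 at 7.73 and 31.9 TPM (1.91), FOSB at 1.87 and 8.04 TPM (1.66), CREB5 at 2.10 and 8.09 TPM (1.55), ATF3 at 14.03 and 37.2 TPM (1.34) and FOSL1 at 11.6 and 29.7 TPM (1.28). JUN was at 33.9 and 66.7 TPM (0.96), while JUNB (118 and 115 TPM) and JUND (200 and 201 TPM) were level. KLF6 (38 and 116 TPM, 1.58) and KLF4 (32.4 and 53.7 TPM, 0.71) led the Kruppel-like factors, 10 of 12 of which were higher.

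YAP and TEAD genes were higher for 16 of 21, with a median of 0.33. CYR61, a matricellular protein and classical target, was at 36.5 and 87.3 TPM (1.24), WTIP at 4.46 and 14.6 TPM (1.52) and NUAK2 at 10.5 and 23.1 TPM (1.07), but CTGF, the other classical target, was lower, at 75.1 and 42.6 TPM (-0.80), as was AXL at 14.8 and 7.04 TPM (-0.98). In the Wnt pathway 11 of 12 targets and feedback genes were higher: LGR5, the R-spondin receptor, at 4.86 and 15.98 TPM (1.53), DKK1, a secreted inhibitor, at 43.0 and 94.0 TPM (1.11), and AXIN2 at 3.10 and 3.98 TPM (0.28). In Huh7 3 of 12 were higher, with a median of -0.35 against 0.37 in PLC/PRF/5; the difference was not tested. CTNNB1, beta-catenin, was at 222 and 259 TPM (0.22). Notch genes had a median of -0.03 over 16, and DLL4, a ligand, was at 4.08 and 9.07 TPM (0.99). In the TGF-beta group 12 of 18 ligands and receptors were higher, near the 63.4% of all genes. Of 13 targets 8 were lower, 1 by more than 2-fold, against 36.5% of all genes lower. The median over the 31 genes was 0.05, and -0.05 after median-ratio scaling. TGFBR2, a receptor, was at 125 and 237 TPM (0.92) and ACVR1B, an activin receptor, at 21.4 and 11.6 TPM (-0.83). Of the insulin-like growth factor and oncofetal genes 11 of 18 were higher, yet IGFBP3 was at 81.4 and 20.2 TPM (-1.96) and H19 at 11.9 and 1.44 TPM (-2.40).

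Among NF-kB factors and inhibitors 15 of 19 were higher, with a median of 0.31. After median-ratio scaling 11 of 19 were, with a median of 0.21, against 50.9% of all genes. NFKBIZ was at 9.26 and 19.4 TPM (0.99), TNFAIP3, the feedback enzyme A20, at 15.1 and 30.2 TPM (0.95) and NFKB2 at 188 and 320 TPM (0.77). Chemokines went both ways, 5 of 12 higher. CXCL8, interleukin-8, was at 432 and 1257 TPM (1.54), while CXCL16 was at 334 and 162 TPM (-1.04), CXCL1 at 373 and 309 TPM (-0.27) and CCL20 at 560 and 519 TPM (-0.11). IL18 was at 89.1 and 163 TPM (0.86), and LTB at 19.7 and 35.4 TPM (0.81).

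Antigen presentation was lower. Of 12 genes considered 10 were lower, with a median of -0.50, and 2 were at least 2-fold lower. HLA-E was at 58.9 and 28.3 TPM (-1.03), HLA-C at 153 and 83.5 TPM (-0.86), and PSMB9, an immunoproteasome subunit, at 1.81 and 0.14 TPM (-1.30). TAP1, the peptide transporter, was at 16.2 and 8.64 TPM (-0.83). B2M, the shared light chain, was higher, at 480 and 552 TPM (0.20). HLA genes are close in sequence, and HLA-B shares 14.8% of its words with others. The interferon-induced genes were split, 14 of 30 higher: UBE2L6 was at 13.8 and 3.54 TPM (-1.70) and IFITM3 at 589 and 338 TPM (-0.80), while ISG15, the modifier that UBE2L6 conjugates, was at 24.5 and 34.3 TPM (0.47). IFIT2, an antiviral protein, was at 0.28 and 1.64 TPM (1.04). Of 9 genes on the list of calcium-binding S100 proteins 5 were lower, each past 1.5-fold, and 4 were higher by at most 0.17: S100A9 at 565 and 122 TPM (-2.20), S100P at 715 and 336 TPM (-1.08), S100A14 at 166 and 99.2 TPM (-0.73) and S100A4 at 13.1 and 6.80 TPM (-0.86), against S100A10 at 763 and 774 TPM and S100A16 at 517 and 576 TPM.

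**Figure D5:**
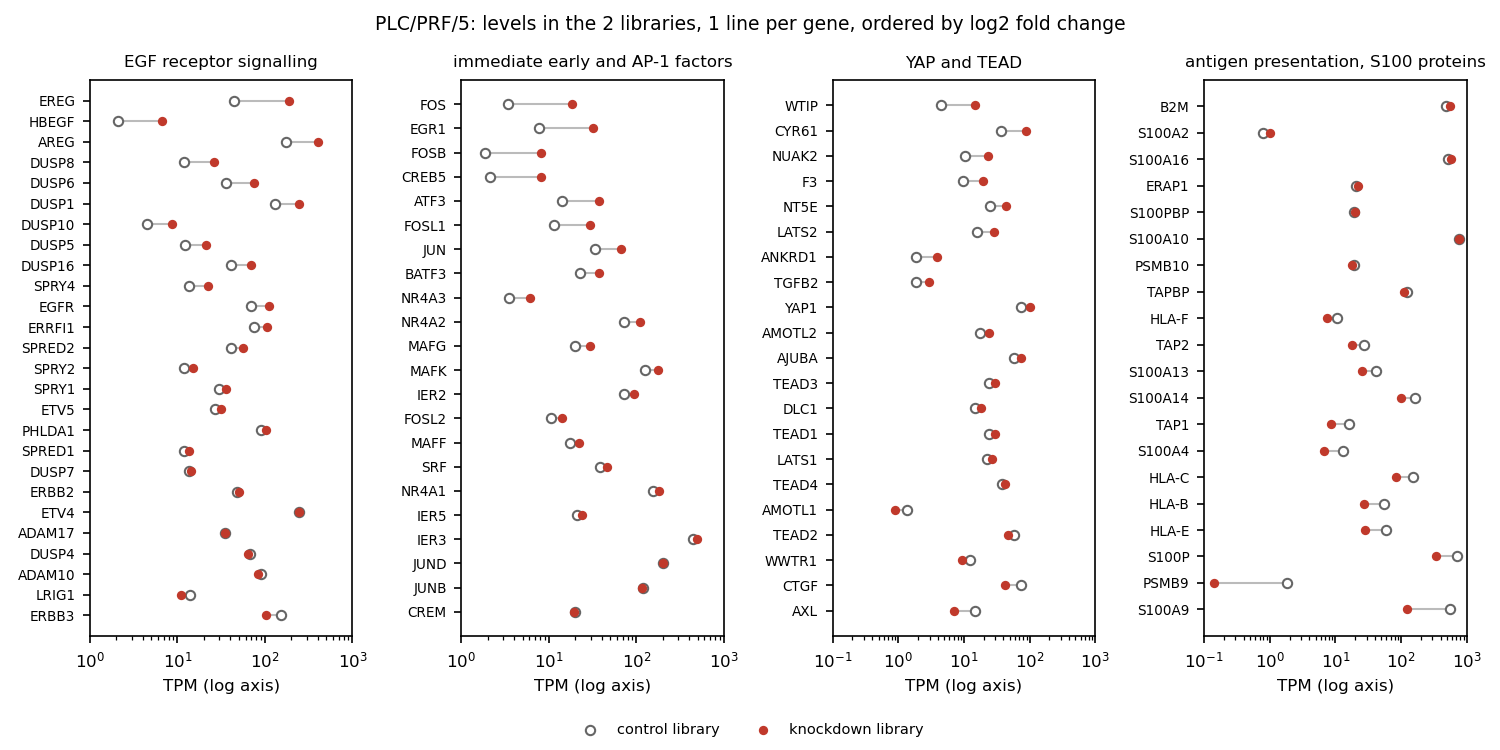
TPM (log axis) of signalling genes, and of antigen presentation and S100 genes, in the control (open circles) and knockdown library (red), ordered by log2 fold change. Red points lie to the right for 21 of 26 EGF receptor genes and 20 of 22 immediate early factors, and to the left for most antigen presentation genes, of which those not reported here are not drawn.

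The cell cycle list differed little: of 107 genes 71 were lower, against 36.5% of all genes, with a median of -0.09 and 1 gene past 2-fold. In DNA replication 29 of 40 genes were lower and in mitosis 29 of 40. TOP2A was at 178 and 105 TPM (-0.76), PTTG1, securin, at 386 and 265 TPM (-0.54), PCNA at 318 and 240 TPM (-0.41) and MCM2 at 104 and 78.3 TPM (-0.40), but MKI67 was at 114 and 124 TPM (0.11) and CDC6, which loads the replication helicase, at 107 and 149 TPM (0.48). Among G1 regulators E2F1 was at 70.6 and 35.9 TPM (-0.96), CDK6 at 15.7 and 36.0 TPM (1.15) and CDKN1B, the inhibitor p27, at 43.3 and 72.3 TPM (0.72). CDKN1A, the inhibitor p21, was at 5.52 and 6.03 TPM. Of 21 p53-regulated genes 18 were higher, by at most 0.93 (GADD45A, 52.5 and 101 TPM). In the BCL2 family, 8 of 13 higher, BIK, a killer protein, was low in both libraries and the 1 gene past 2-fold, at 0.33 and 1.81 TPM (1.08). The effector BAX was at 128 and 66.5 TPM (-0.93), BBC3 at 6.26 and 9.83 TPM (0.58) and the protective MCL1 at 193 and 247 TPM (0.35). Ribosome biogenesis genes, 22 of 32 higher, included MYC at 111 and 133 TPM (0.27); their median of 0.08 becomes -0.02 after median-ratio scaling.

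Epithelial adhesion genes included wide values in both directions. SCEL, sciellin, a protein of cornified envelopes, stood at 5.20 and 36.3 TPM (2.59), PPL, periplakin, at 1.56 and 5.28 TPM (1.29), DSP, desmoplakin, at 87.1 and 152 TPM (0.80) and KRT80 at 1.62 and 4.40 TPM (1.04). Of 9 keratins 7 were higher, and the widest was lower: KRT81, of hair, was at 2.38 and 0.32 TPM (-1.36), with 49.9% of its sequence words shared. Of the simple keratins, KRT8 was at 1159 and 1372 TPM (0.24). KRT18 was at 1229 and 1710 TPM (0.48). CEACAM1 was lower, at 13.2 and 3.73 TPM (-1.59), as was TJP3, a tight junction scaffold, at 17.7 and 6.95 TPM (-1.23). Matrix genes were higher for 15 of 21, against 63.4% of all genes, and for 12 of 21 after median-ratio scaling, against 50.9%. Those higher included ITGB4, the integrin of hemidesmosomes, at 11.2 and 34.0 TPM (1.52), and FN1, fibronectin, at 348 and 568 TPM (0.70). VIM, CDH1 and CDH2 were below 1 TPM in both libraries. Of 17 progenitor markers 13 were higher, with CD44 at 1.54 and 3.57 TPM (0.85) and ANPEP, or CD13, at 190 and 117 TPM (-0.70). Among clock genes BHLHE41 was at 2.95 and 10.6 TPM (1.55) and PER2 at 8.01 and 16.4 TPM (0.95), with a median of 0.02 over 16. Of 16 protease inhibitors TIMP1 was at 1.25 and 4.42 TPM (1.27) and SLPI at 111 and 62.6 TPM (-0.82).

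Genes were also grouped by the stem of their symbol. With at least 10 genes considered per stem there were 170 families. Zinc finger genes named ZNF were higher for 380 of 446, with a median of 0.27, and 345 after median-ratio scaling, yet 5 were 2-fold different. RBM, a family of RNA-binding proteins, was higher for 30 of 35 (median 0.29) and golgins, named GOLGA, for 17 of 17 (median 0.61), where GOLGA8A, 1 of 2 past 2-fold, was at 16.1 and 54.2 TPM (1.69) and GOLGA2 at 36.8 and 57.4 TPM (0.63). Of the golgins 8 share at least 50% of their sequence words with other genes. The long non-coding LINC genes were higher for 77 of 106 (median 0.28), and the nuclear RNAs NEAT1 (155 and 459 TPM, 1.56) and MALAT1 (133 and 285 TPM, 1.10), chosen after their values were seen, were higher too. Histone genes named HIST had a median of 0.39 over 39; HIST1H4J (0 and 3.41 TPM) and HIST1H4K (5.82 and 1.76 TPM) lay in opposite directions, with 82.2% and 100% of their words shared. The 5 lowest medians were those of the stem S, mostly S100 proteins (-0.64 over 11), HLA (-0.54 over 10), the tetraspanins TSPAN (-0.25 over 14), H, mostly histone variants (-0.18 over 15), and MCM (-0.18 over 11). Ribosomal protein stems were slightly lower, RPL for 45 of 59 genes (median -0.10) and RPS for 34 of 42 (-0.08). Transcript length moved with the share of genes higher by any amount. Of the 2541 genes with the shortest transcripts 53.2% were higher (median 0.02), against 68.8% of the 2541 with the longest (median 0.14). Wide differences were more frequent among the shortest in both directions: 3.27% were 2-fold higher and 1.85% 2-fold lower, against 1.18% and 0.551% of the longest. The part of length in the families was not tested.

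Some cancer-testis genes, normally expressed in the germ line and encoded in multicopy clusters, were among the widest values. The families were not shifted alike. Of 11 genes considered with the stem MAGEA 6 were higher, with a median of 0.01, and 2 were past 2-fold. Of 10 with the stem GAGE 8 were higher, with a median of 0.42, and 8 share at least 50% of their sequence words. Over all genes 63.4% were higher. PAGE1 was at 1.68 and 74.4 TPM (4.81), the highest fold change of genes with at least 5 TPM in either library, and 1.7% of its words are shared. SPANXB1 was at 0.29 and 8.18 TPM (2.83). XAGE1E was lower, at 473 and 73.9 TPM (-2.66), and has no transcript in the reference used. MAGEA9B, PAGE2B, GAGE12B and GAGE12D share between 62.2% and 100% of their words, and SMN2, at 0.29 and 17.6 TPM (3.85), shares 98.0%, so that reads can pass between copies. Other wide values of single genes with little shared sequence were SYT13 (0.36 and 7.51 TPM, 2.65), ZFR2 (0.92 and 9.08 TPM, 2.39), TULP3 (6.23 and 28.1 TPM, 2.01), CEMIP, which breaks down hyaluronan (12.4 and 52.9 TPM, 2.0), and INA, a neuronal intermediate filament (7.04 and 30.8 TPM, 1.99). On the lower side were CRH, corticotropin-releasing hormone (35.5 and 3.94 TPM, -2.88), and CD70, a ligand of the tumour necrosis factor family (21.5 and 4.28 TPM, -2.09). Of the 225 genes 2-fold higher 33 share at least 50% of their words, and of the 146 genes 2-fold lower 10. The share over all genes considered is not given here, so no excess is read from these counts.

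Set beside the same pair in Huh7, 52 genes were at least 2-fold higher in both knockdown libraries, 23.1% of those in PLC/PRF/5 and 12.4% of those in Huh7, where 3.10% of 13485 genes were. At least 2-fold lower in both were 26 genes, 17.8% and 12.6% of the lists, against 1.54% of genes in Huh7. In opposite directions, 7 of the 225 genes 2-fold higher in PLC/PRF/5 were 2-fold lower in Huh7, where 1.54% of genes were. Of the 146 genes 2-fold lower, 9 were 2-fold higher in Huh7, where 3.10% of genes were. Of the 225 and 146 genes, 159 and 119 were considered in Huh7, and the others could not be counted in either overlap. The difference between the lines was not tested. EREG (2.63 and 49.2 TPM in Huh7, 3.79) and S100A9 (132 and 25.8 TPM in Huh7, -2.31) had the same direction in both. AHSG, at 550 and 551 TPM in Huh7, and HAL, at 4.56 and 6.97 TPM there, did not follow their PLC/PRF/5 values.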

How the data were processed

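TRIzol-extracted RNA was read on an Illumina instrument, per the labels' protocols. The authors deposited TPM per gene symbol with 2 decimals; trimming with cutadapt, RSEM 1.2.21 and the build hg19 are listed in the submitters' processing notes. The aligner, gene annotation and strandedness were not given in the sources used here. TPM fixes each library's total, so abundant genes move all others, and depth is unknown: no interval or detection limit was computed. RSEM divides reads that fit several genes, so near-identical copies are uncertain. Groups came from the sample titles.

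From these values log2((knockdown + 1)/(control + 1)) was computed for genes with TPM of at least 1 in either library (Python 3.11.15, pandas 2.3.3, numpy 2.4.6, matplotlib 3.10.9), and the step was tested on simulated data. At least 2-fold is a size rule. The 50 gene lists, and which part of the series to describe, were chosen with earlier results of these data known. Named genes were SCD and SCD5, genes among the 20 highest and 20 lowest with at least 5 TPM, list members 2-fold different or the 4 widest, and members set out by role; others were chosen after their values were seen. Shared 31-base words and length come from GENCODE 29 transcripts, matched for 23551 symbols (92.9%); promoters are RefSeq's. Alternatives were pseudocounts of 0.1 and 5, a filter of 5 TPM or none, median-ratio scaling, rescaling without the 20 most abundant genes (no mitochondrially encoded gene is listed by name), and, added after seeing the data, leaving out genes of shared or unmatched sequence. Some members of the lists are counted but not reported here by name.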

Additional observations from a re-analysis of the deposited data

Results flagged for a closer look

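Some results had opposite directions in the other cell line, and the difference between the lines was not tested, since each group has 1 library. The median log2 fold change of plasma carriers and oncofetal secreted proteins was -0.89 in PLC/PRF/5 and 0.30 in Huh7. The median of the complement list was -0.22 and 0.46, and that of the S100 proteins -0.69 and 0.37. Among the genes with the widest PLC/PRF/5 values, IGFBP3, which binds insulin-like growth factors, was at -1.96 in PLC/PRF/5 and 2.09 in Huh7. SHE was at 2.51 and -1.10. SMN2 was at 3.85 and -1.24, and 98.0% of its sequence words occur in other genes.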

How the results depend on the processing

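No paired analysis was possible because each group has 1 library. The counts of genes at least 2-fold higher and lower were 225 and 146, and went to 480 and 248 with a pseudocount of 0.1 TPM and to 68 and 55 with 5 TPM; by construction the added value sets how far low genes can differ. Under the other alternatives they ranged from 155 to 226 higher and from 110 to 195 lower, with 170 and 195 after median-ratio scaling. The median over all genes, 0.10, was 0.01 after median-ratio scaling and 0.00 with no filter, which adds genes listed at 0. Of the medians of 49 lists, 11 lie so near 0 that median-ratio scaling changed their sign; none of these lay beyond 0.1. No median beyond 0.2 changed sign under any alternative run. With no filter 4 medians moved by more than 0.2: plasma carriers at -0.28, apolipoproteins at -0.07, and complement and S100 proteins at 0.00, all by adding genes below 1 TPM. With a filter of 5 TPM the coagulation median was -0.27. Of 1327 named genes and list members, 32 moved by more than 1.5-fold with a pseudocount of 0.1 and 48 with 5, and none past 2-fold changed sign under any alternative run. Without a replicate, variation between cultures cannot be told apart from the effect of the hairpin.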
